A study of Saccharomyces cerevisiae with 14 samples.

Results

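Large ribosomal subunits are built by a set of assembly and export factors that bind the nascent particle in turn. Transcripts of 50 such factors were followed in the budding yeast Saccharomyces cerevisiae after a pulse of rapamycin. The 50 genes were chosen by name, as helicases, scaffold proteins, placeholders, GTPases and export factors of this pathway. No measured value was a criterion, but earlier results of these data were known when they were chosen. All 50 were among the 5449 genes with a gene-specific probe set, each through 1 probe set, none of them of the kind whose name marks probes that also match other genes.

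The strain was the wild type YSBN6, grown in batch fermentors at 30 °C and pH 5 with stirring at 1000 rpm. Its defined minimal medium held glucose at 20 g/L and glutamine at 1 g/L. Rapamycin was added to 400 µg/L at an optical density near 1, during exponential growth. The 3 fermentations, BY005, BY006 and BY007, gave 14 arrays: each fermentation 1 at steady state, 10 min before the pulse, 1 at 7 min and 1 at 24 min, and BY005 a further 5 at 3, 10, 14, 56 and 120 min. Every later sample came from a culture that had received rapamycin. An effect of the time spent in culture, or of the addition as such, cannot be told apart from one of the drug.

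In yeast, pre-rRNA is transcribed in the nucleolus, where helicases and scaffold proteins fold it and bring in ribosomal proteins. The particle then passes through the nucleoplasm, where GTPases and a large AAA ATPase remodel it, and through the nuclear pore to the cytoplasm, where the last factors are released and recycled. Rapamycin binds the FKBP protein Fpr1 and so inhibits TOR complex 1, a kinase that couples ribosome production to nutrients.

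Levels are log2 values of the authors' RMA intensities, and each array measures relative, not absolute, amounts. A higher level of one gene than of another is not read as more transcript, since probes differ in brightness. Ranges of the level over genes, and relations with it, hold that difference too. Changes were fitted with limma over all genes, and a gene counted as lower or higher at a Benjamini-Hochberg adjusted p under 0.05 over the 5449 genes. Errors after ± are standard errors of the fit unless named otherwise. Array background was taken from probe sets for fission yeast, of which 95% had a mean below 5.63. The spread of the members among replicate arrays was near that of all genes at steady state, with a median SD of 0.0743 against 0.0672, and larger than it later. It was 0.227 against 0.0904 at 7 min and 0.365 against 0.0821 at 24 min (log2, n = 3 arrays each). Spiked hybridisation controls ran from 8.74 to 11.85 among the 14 arrays after the authors' normalization. The part of this in the results was not tested, beyond the rescaled values given below.

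At 24 min, 49 of the 50 members were lower than at steady state and none was higher, where 30.4% of all genes were lower and 44.5% higher. Against 7 min, also in all 3 fermentations, 49 members were lower (30.8% of all genes). The median member fell by 4.0 on the log2 scale, 16-fold, and the median gene of the array changed by 0.11. The steady-state levels ran from 10.05 for IPI3 to 12.83 for BRX1, with a median of 11.68, and the median at 24 min was 7.53. In RNA from whole cultures, fewer cells with a transcript and less of it per cell cannot be told apart. Scaled on poly-A spike-in controls, an alternative chosen after seeing the data, 46 members passed the test as lower (6.37% of all genes), and 37 did with scaling on the hybridisation controls (2.4%). The 3 that passed as reported but not with poly-A scaling were NOP16, with a change of -1.06, TIF6 with -0.51 and MDN1 with -0.65.

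**Figure D1:**
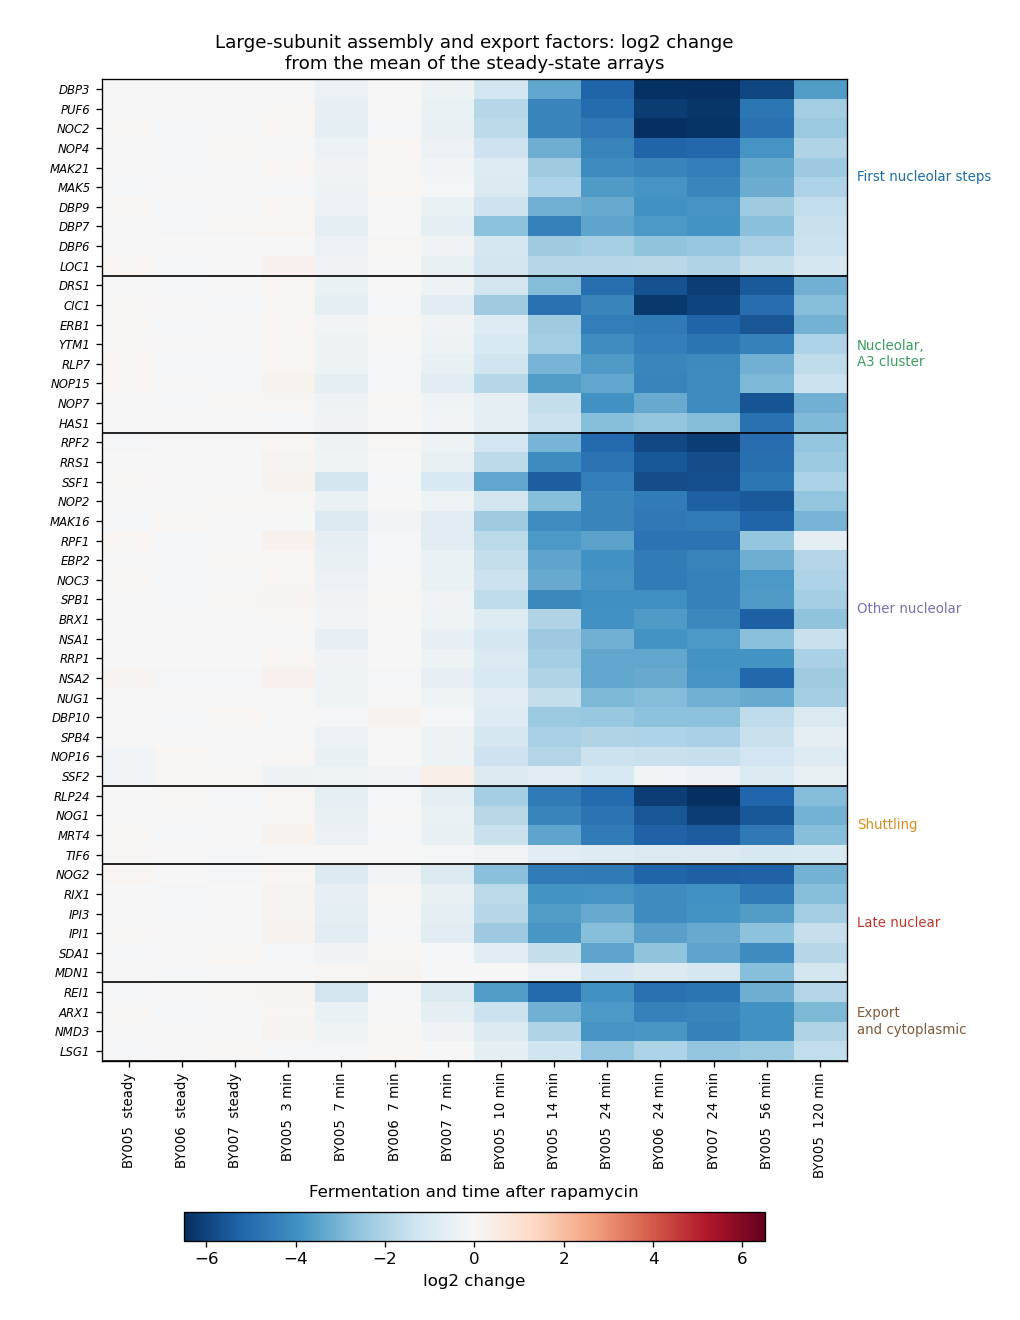
Heat map of the 50 members (rows, grouped by role) over the 14 arrays (columns, by time and fermentation). Colour gives the log2 change from the mean of the 3 steady-state arrays; the 3 columns of 24 min are dark in nearly every row, and TIF6, SSF2 and MDN1 are among the palest rows there.

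The 10 factors that act on the earliest particles were all lower at 24 min, with a median change of -4.11 and a range from -6.06 to -1.87. DBP3, a DEAD-box RNA helicase of early pre-rRNA processing, had the lowest fitted change of the set. Its level was 11.93 in BY005, 11.89 in BY006 and 11.95 in BY007 at steady state, and 6.72, 5.52 and 5.36 at 24 min, with the fermentations in this order here and below. The 24 min arrays all lay far below the steady-state arrays, and those of BY006 and BY007 lay under the background value. The fall was -6.06 ± 0.31 (adjusted p = 4.4e-07, limma, n = 3 arrays per group), given as at least 61-fold. Here and below, a fold is a lower bound where any 24 min array lay under background, with each such array raised to background first, and such members have no order among themselves.

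LOC1, a nuclear RNA-binding protein also known from the localization of ASH1 mRNA, moved least among the earliest factors. It read 11.75, 11.48 and 11.59 at steady state and 9.77, 9.82 and 9.63 at 24 min. These groups did not overlap, and the difference was -1.87 ± 0.11, or 3.64-fold (adjusted p = 1.2e-06). PUF6, a Pumilio-family protein that acts with LOC1 on ASH1 mRNA, went from 12.04, 12.07 and 12.13 to 7.07, 5.91 and 5.74, a 57.4-fold fall. The pair, known for a shared role on ASH1 mRNA, thus stood near opposite ends of the class.

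NOC2 forms dimers with MAK21, also called NOC1, and with NOC3 on successive particles. Its steady-state levels were 11.38, 11.23 and 11.36, and its levels at 24 min were 6.66, 4.84 and 4.97. The mean at 24 min lay below background, so the fall of -5.83 ± 0.42 (adjusted p = 3e-06) is given as at least 40.8-fold. The partners MAK21 and NOC3 were 19.7-fold and 18.9-fold lower. The helicases DBP6, DBP7, DBP9 and MAK5 were 5.33-fold, 12.9-fold, 12.9-fold and 15.1-fold lower, and the RNA-binding protein NOP4 was 29.3-fold lower.

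The 8 A3 factors bind the pre-rRNA near its internal spacers and are needed for trimming of the first one. All 8 were lower at 24 min, with a median of -4.20 and a range from -5.56 to -2.72. DRS1, a DEAD-box helicase, read 11.28, 11.17 and 11.24 at steady state and 6.32, 5.57 and 5.13 at 24 min. All 3 later arrays lay far below the earlier ones, and 2 of them lay under background. The fall was -5.56 ± 0.26 (adjusted p = 2.8e-07), or at least 41.3-fold.

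HAS1, a DEAD-box helicase that works on both subunits, moved least of the A3 factors at that time. Its levels were 11.78, 11.74 and 11.79 at steady state and 8.99, 9.19 and 8.95 at 24 min, and the difference was -2.72 ± 0.08, or 6.61-fold (adjusted p = 5.7e-08). The groups did not overlap, and both were tight. The trimeric complex of NOP7, ERB1 and YTM1 was 13.5-fold, 27-fold and 21.2-fold lower. CIC1, NOP15 and RLP7 sit on the second internal spacer. CIC1, with 1 array of 24 min under background, was at least 43.5-fold lower, NOP15 15.5-fold and RLP7 16-fold.

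Among the 18 other nucleolar factors, 17 were lower at 24 min and 1, SSF2, did not pass the test. The class had a median of -4.03 and ran from -5.68 to -0.51. RPF2 and RRS1, which together bring the 5S rRNA particle into the large subunit, were both among its larger falls. RPF2 read 11.96, 12.04 and 12.07 at steady state and 6.97, 6.15 and 5.89 at 24 min, a change of -5.68 ± 0.24, or 51.4-fold (adjusted p = 1.8e-07). RRS1 was at least 36.6-fold lower, with 2 of 3 arrays under background. All the 24 min arrays of both genes lay below every steady-state array.

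SSF1 and SSF2 encode nearly interchangeable proteins of the Brix family. SSF1 read 10.54, 10.47 and 10.44 at steady state and 6.0, 4.70 and 4.78 at 24 min. SSF2 read 10.51, 10.79 and 10.75 at steady state and 9.68, 10.50 and 10.32 at 24 min. For SSF1 the groups lay far apart, and the 24 min mean was under background. The change of SSF1 was -5.32 ± 0.37 (adjusted p = 2.3e-06), given as at least 26.5-fold. For SSF2 the groups lay next to each other, with the highest 24 min array just under the lowest steady-state array. Its change was -0.51 ± 0.24 (adjusted p = 0.081). With the fermentation as a block SSF2 passed the test (adjusted p = 0.03), as it did when the 24 min array of BY006 was left out (adjusted p = 0.041). With the 7 min array of BY007 left out, where SSF2 read 11.11, that p was 0.046, while scaling on hybridisation controls turned its change to 0.46.

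The RPF1, NSA1, RRP1 and MAK16 proteins form a module on the solvent side of the particle. Their transcripts were 20.6-fold, 11.9-fold, 11.7-fold and 22.8-fold lower at 24 min. EBP2 and BRX1, which bind each other, were 19.5-fold and 15.4-fold lower. The rRNA methyltransferases NOP2 and SPB1 were 26.3-fold and 17.3-fold lower. Among the remaining factors of the class, the helicases DBP10 and SPB4 were 6.1-fold and 4.05-fold lower, the GTPase NUG1 7.7-fold and NSA2 11.3-fold. NOP16 stood next to SSF2 at the small end, at -1.45 ± 0.13 or 2.74-fold (adjusted p = 1.4e-05).

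The 4 factors that join in the nucleolus or nucleus and leave in the cytoplasm split into 3 with large falls and 1 with a small one. RLP24, a placeholder for the ribosomal protein Rpl24, read 11.74, 11.85 and 11.70 at steady state and 6.73, 5.66 and 5.29 at 24 min. The later arrays were all far lower, that of BY007 under background, and the difference was -5.87 ± 0.32 (adjusted p = 6.2e-07), or at least 54-fold. The GTPase NOG1, its partner on the particle, was 45.8-fold lower. MRT4, a placeholder for the stalk protein P0, was 33.8-fold lower, from 12.73, 12.58 and 12.63 to 8.10, 7.37 and 7.24. TIF6, the factor that keeps the subunits apart (eIF6 in mammals), read 12.62, 12.54 and 12.44 and then 11.69, 11.59 and 11.63. Its groups did not overlap either, but the difference was only -0.90 ± 0.06, or 1.87-fold (adjusted p = 1.8e-06). It turned to 0.08 with scaling on hybridisation controls.

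Among the 6 late nuclear factors, all of them lower at 24 min, the median was -3.47. NOG2, a GTPase that marks the particle before export, read 12.24, 12.07 and 12.04 at steady state and 7.52, 6.93 and 6.83 at 24 min, a fall of -5.02 ± 0.23, or 32.5-fold (adjusted p = 2.4e-07). MDN1, the giant AAA ATPase that pulls factors off the particle, read 12.86, 12.75 and 12.86 and then 11.75, 11.92 and 11.70. Both genes were lower in every 24 min array, but for MDN1 the difference was -1.04 ± 0.07, or 2.05-fold (adjusted p = 2.6e-06). The RIX1, IPI1 and IPI3 proteins, which recruit MDN1, had transcripts 15.5-fold, 9.1-fold and 13.6-fold lower. SDA1, a nuclear factor of the same stage, was 8.94-fold lower.

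All 4 export and cytoplasmic factors were lower too, with a median of -4.06. REI1, which releases ARX1 in the cytoplasm, read 10.50, 10.60 and 10.72 at steady state and 6.67, 5.75 and 5.85 at 24 min. This was a separation of -4.52 ± 0.31, or 22.9-fold (adjusted p = 2.4e-06). ARX1, an export factor, and NMD3, the adaptor for the exportin Crm1, were 17.5-fold and 16-fold lower. LSG1, the cytoplasmic GTPase that releases NMD3, read 11.92, 11.95 and 12.06 and then 9.44, 9.97 and 9.42, a difference of -2.37 ± 0.14, or 5.15-fold (adjusted p = 1e-06). It had the smallest fall of the class, and its groups did not overlap.

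**Figure D2:**
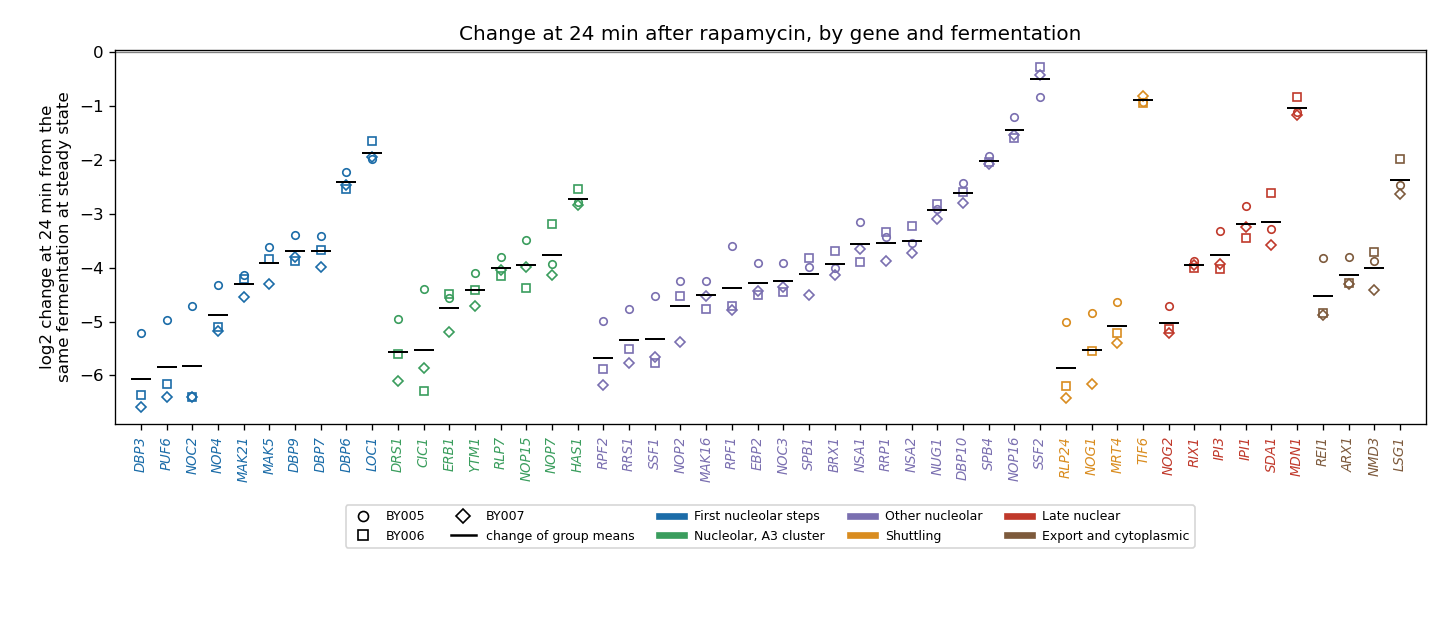
Log2 change at 24 min (vertical axis) of each member (horizontal axis, coloured by role) against the steady-state sample of the same fermentation. Circles are BY005, squares BY006, diamonds BY007 and black bars the change of the group means; all points lie below 0, and SSF2, TIF6, MDN1 and NOP16 stand nearest to 0.

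Early nucleolar and late factors differed little at 24 min beside the spread within each. The median change was -4.06 over 36 early factors and -3.86 over 10 late nuclear, export and cytoplasmic factors. Against each fermentation's own steady state, the early median minus the late median was -0.35 in BY005, -0.32 in BY006 and -0.38 in BY007. With the 4 shuttling factors counted as late, the difference of the fitted medians shrank from -0.20 to -0.08. Earlier, in BY005, the order was the other way round: the early factors lay above the late ones by 0.42 at 10 min and 0.61 at 14 min. At 7 min, measured in all 3 fermentations, the difference was 0.14 in BY005, -0.09 in BY006 and 0.19 in BY007. At 56 min the medians differed by 0.02 and at 120 min by -0.24. These are descriptions of 1 or 3 cultures, with no test.

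Grouping by enzyme did not separate the members either. The 9 DEAD-box helicases had a median change of -3.69 at 24 min and ranged from -6.06 for DBP3 to -2.02 for SPB4. The 4 GTPases, NOG1, NOG2, NUG1 and LSG1, had a median of -3.98. The change at 24 min and the steady-state level had a Pearson's r of -0.03 and a Spearman's rho of -0.09 over the 50 genes. Genes are not independent replicates, and the level also holds probe brightness.

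At 3 min in BY005 no member passed the test, as no gene of the array did (0.0% lower, 0 of 5449 genes), and 0 members had an unadjusted p under 0.05 in limma. At 7 min again no member passed, and 0.0734% of all genes were lower. The median member stood at -0.26, with 48 of 50 members below 0, as were 2001 of 5449 genes. An unadjusted p under 0.05 in limma was reached by 4 members and by 1092 of 5449 genes. All 4 were lower, as were 189 of the 1092. The members furthest from 0 were SSF1 at -0.77 ± 0.37 (adjusted p = 0.29), REI1 at -0.75 ± 0.31 (adjusted p = 0.23) and NOG2 at -0.66 ± 0.23 (adjusted p = 0.16), named here after their values were seen.

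The fermentations differed at 7 min. Against its own steady state, the median member stood at -0.41 in BY005, 0.04 in BY006 and -0.40 in BY007. BY006 had the highest change of the 3 in 48 of 50 members, against 45.4% of all genes. REI1, for example, was at 9.40 and 9.67 in BY005 and BY007 and at 10.52 in BY006, which lay among its steady-state arrays. Without the 7 min array of BY006, 8 members were lower (3.23% of all genes): MAK16 at -0.79, REI1 at -1.07, NOG2 at -0.90, IPI1 at -0.75, DBP7 at -0.61, RIX1 at -0.51, NOP16 at -0.41 and SPB4 at -0.36. Of these 8, 4 belong to the 10 late factors and 4 to the 36 early ones. The array left out is the one with the highest change in most members, so a larger fall follows from that choice. The fitted median of the members was then -0.38, and -0.19 or -0.20 without the 7 min array of BY005 or BY007. Scaled on poly-A controls, the 7 min median of the members was 0.30, where the median gene lay at 0.52. That fit left out the 7 min array of BY005, so it rests on BY006 and BY007 at this time.

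**Figure D3:**
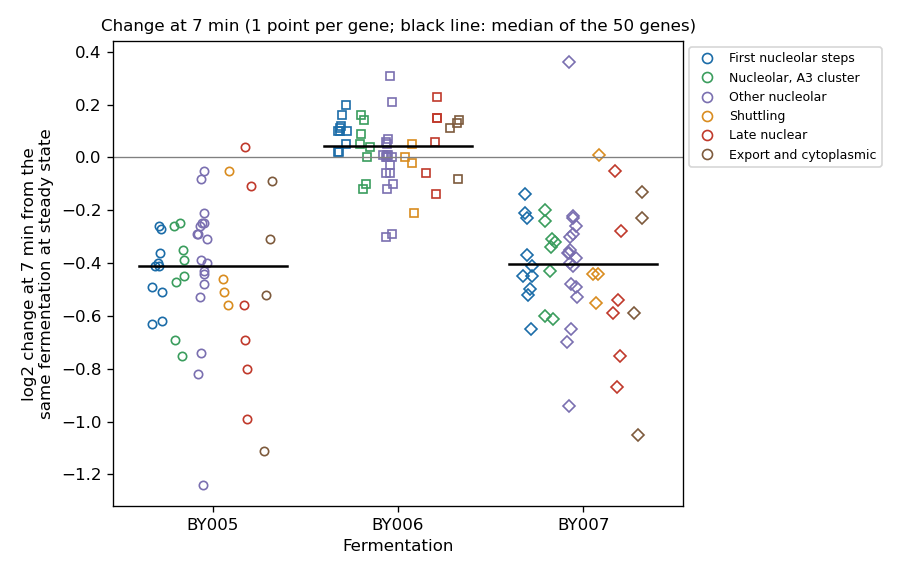
Log2 change at 7 min (vertical axis) against steady state within each fermentation (horizontal axis), 1 point per member, coloured by role. Black lines mark the medians, -0.41, 0.04 and -0.40; the BY006 points gather around 0 and those of BY005 and BY007 lie mostly below it.

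The order of the falls could be read in BY005, where 1 array was measured at each time. At 10 min 45 members were lower (15.5% of all genes) with a median of -1.29, and at 14 min 49 were lower (28.2%) with a median of -3.02. At times with 1 array, the error is borrowed from the replicated times. The median step between samples was -0.51 from 3 to 7 min, -0.93 from 7 to 10 min, -1.62 from 10 to 14 min and -0.57 from 14 to 24 min. Scaled on poly-A controls, 14 members were lower at 10 min (1.38% of all genes) and 30 at 14 min (2.86%).

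The midpoint of each member's deepest fall, read by interpolation between samples, came at 11.1 min in the median. It ranged from 8.5 min for SSF2, whose fall was shallow, to 29.5 min for MDN1. REI1 reached it at 8.7 min, LOC1 and NOP16 at 8.9 min, SSF1 at 9.0 min and IPI1 at 9.1 min. In REI1 the level read 10.50, 10.78, 9.40, 6.98 and 5.56 at steady state, 3, 7, 10 and 14 min, which is a fall to background within 14 min. At 10 min REI1 was 12.3-fold lower (adjusted p = 0.00078) and SSF1 10.4-fold lower (adjusted p = 0.0015). Between 7 and 10 min the REI1 level fell at a rate that would halve it every 1.24 min, and those of SSF1, DBP7 and NOG2 every 1.37, 1.5 and 1.62 min.

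At the slow end stood MDN1, HAS1 at 21.4 min, NOP7 at 19.3 min, NSA2 at 17.7 min, BRX1 at 17.5 min, SDA1 at 17.1 min and ERB1 at 16 min. MDN1 read 12.86, 12.82, 12.90, 12.87 and 12.46 over the same 5 samples, so its level at 10 min lay within 0.05 of steady state. The group holds 3 of the 8 A3 factors and 2 of the 6 late nuclear factors. MDN1 is by far the longest of the genes, at 14733 bases, next to 3078 bases for MAK21. Over the 50 genes the midpoint and gene length had a Pearson's r of 0.66 but a Spearman's rho of 0.26. The midpoint and steady-state level had a Pearson's r of 0.55 and a rho of 0.59, where the level also holds probe brightness. Both relations are across genes, with midpoints of 1 culture, without a test.

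**Figure D4:**
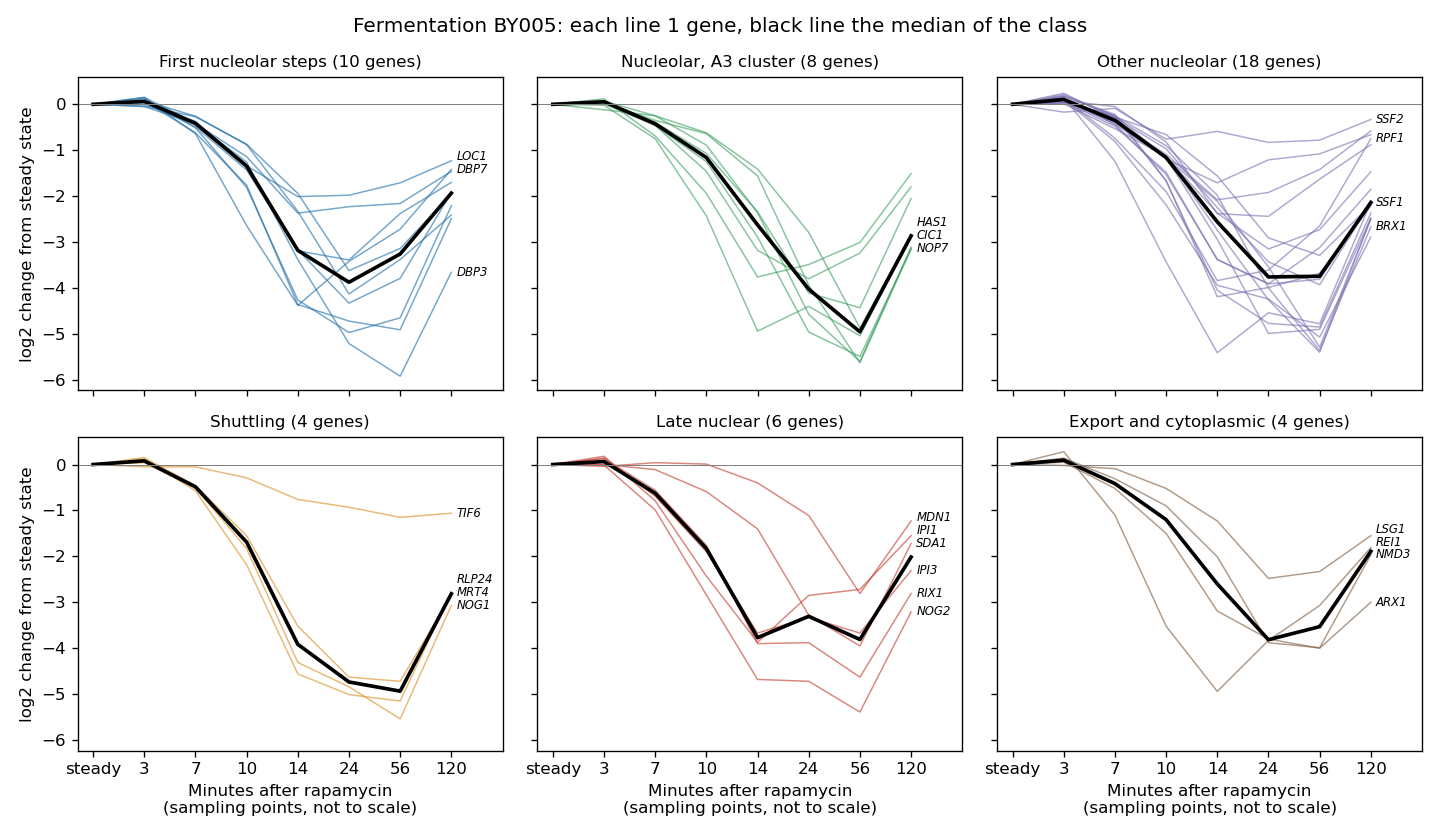
Time course of BY005 in 6 panels, 1 for each role, with log2 change from its steady-state array against sampling time in min (not to scale). Each coloured line is 1 member and the black line the median of the role; from 56 to 120 min all 50 lines rise.

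At 56 min all 50 members were lower than at steady state (25.7% of all genes), with a median of -3.84. Against 24 min, 8 members were lower still (11% of all genes) and 11 were higher (21.6%). The 8 were HAS1, MDN1, NOP7, NSA2, BRX1, SDA1, ERB1 and RIX1, the first 7 of which are the slow members named above. The midpoint of a fall comes later where the fall goes on to 56 min, so both measures use that sample. HAS1 went from 8.99, 9.19 and 8.95 at 24 min to 6.91 at 56 min, a further -2.13 ± 0.12. NOP7 went from 7.75, 8.40 and 7.59 to 6.06, and MDN1 from 11.75, 11.92 and 11.70 to 10.05. In each of these the single 56 min array lay under all 3 arrays of 24 min.

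The 11 that were higher at 56 than at 24 min were REI1, DBP7, SPB4, RPF1, DBP9, EBP2, DBP10, RLP7, NOP4, MAK21 and MAK5. RPF1 had the largest fitted rise, 1.85 ± 0.48, from 7.1, 5.78 and 5.76 to 8.06. The fit sets the 56 min array of BY005 against the mean of 3 fermentations. At 24 min BY005 had the highest change of the 3 in 35 of 50 members, against 47.1% of all genes. Within BY005 alone, all 19 steps had the same sign as in the fit, but RPF1 rose by only 0.96 and DBP9 by 1.02. The median step of the 50 members was -0.10 within BY005, with 27 below 0. The fitted median was 0.31, with 17 below 0. Scaled on either set of control probes, 0 of the 19 passed limma's test. Of all genes, 1.08% were lower and 0.0367% higher with poly-A controls, and 1.06% lower and 0.0% higher with hybridisation controls. With the latter, all 50 members lay below their 24 min level, so the 11 reported as higher turned sign (member median -1.63, median gene -1.85).

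By 120 min all 50 members had risen in level from the 56 min sample of BY005, by a median of 1.80, and 37 passed the test (9.95% of all genes). Against 24 min, 45 were higher (28.4%), and the exceptions were NOP7, HAS1, SSF2, TIF6 and MDN1. The members were still below steady state, with 48 lower (25.3%) and a median of -2.08, or 4.23-fold. RPF1 and SSF2 were the members that did not pass, at -0.62 ± 0.48 (adjusted p = 0.28) and -0.50 ± 0.34 (adjusted p = 0.22). With poly-A scaling, 26 members were lower at 120 min (3.51% of all genes), 11 were higher than at 24 min (0.899%) and 0 higher than at 56 min (0.0%). Scaled on hybridisation controls, the median member lay 0.61 above its 24 min level, and 15 members lay below it.

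In BY005 the median member had regained 49.5% of its deepest log2 fall by 120 min. The extremes were TIF6 at 7.6% and RPF1 at 80.5%. RPF1, lowest at 6.87 at 14 min, read 9.96 at 120 min against 10.71 at steady state. TIF6 stayed at 11.69, 11.47 and 11.56 at 24, 56 and 120 min. The lowest sample of BY005 was that of 14 min in 11 members, 24 min in 13 and 56 min in 26. By role, 56 min was the lowest in 2 of the 10 earliest factors and 6 of 8 A3 factors. It was so in 7 of 18 other nucleolar and 4 of 4 shuttling factors. The same held for 5 of 6 late nuclear and 2 of 4 export and cytoplasmic factors. Some of these rest on small steps between single arrays, so no order of the roles in time is read from them. In the shuttling factors the step from 24 to 56 min ran from -0.7 to -0.08, and IPI3 read 6.43 at both 14 and 56 min.

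Another 35 genes known for work on the large subunit gave a wider range. At 24 min 32 of them were lower and 1 was higher, with a median of -2.66. The largest falls were in SYO1, the carrier of Rpl5 and Rpl11, at -5.59 ± 0.34 and at least 36.6-fold (its mean lay under background), in CGR1 at 33.2-fold and in RSA4, the partner of MDN1 on the particle, at 29.7-fold or more (1 array under background). The cytoplasmic factors YVH1, RIA1 (also EFL1), SDO1 and AFG2 were 6.30-fold, 2.74-fold, 1.57-fold and 2.58-fold lower, and the export factor BUD20 was 7.26-fold lower.

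The general export receptors stood apart in size from NMD3 and ARX1. CRM1, the exportin of many cargoes, read 11.36, 11.20 and 11.09 at steady state and 11.36, 11.06 and 11.14 at 24 min, with overlapping groups and a change of -0.03 ± 0.09 (adjusted p = 0.79). MEX67, the mRNA export receptor that also carries large subunits, changed by -0.32 ± 0.07, or 1.25-fold (adjusted p = 0.0027). NOP8 varied among its arrays and did not pass, at -0.71 ± 0.46 (adjusted p = 0.19). The one gene that was higher was REH1, the paralog of REI1, which went from 11.52, 11.30 and 11.34 to 11.97, 11.80 and 11.89, or 1.41-fold (adjusted p = 0.00024). REI1 and REH1 thus differed in direction at 24 min, with groups that did not overlap in either gene.

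For the placeholders RLP24 and MRT4, and for RLP7, a related ribosomal protein could be set beside them. RPL24A, which takes the place of RLP24, read 14.30, 14.32 and 14.29 at steady state and 14.18, 14.13 and 14.13 at 24 min, a change of -0.16 (adjusted p = 0.0057). It then stood at 12.46 at 56 min and 11.32 at 120 min, 3.58-fold and 7.91-fold lower. RLP24 went the other way between those samples, from 6.59 to 8.96. RPL24B changed by -0.32 at 24 min, -1.68 at 56 min and -1.69 at 120 min.

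RPP0, which replaces MRT4, changed by -0.12 at 24 min, -1.78 at 56 min and -2.25 at 120 min, while MRT4 changed by -5.08, -4.63 and -2.76. RLP7, a relative of Rpl7, changed by -4.0, -3.09 and -1.65, and RPL7A by -0.23, -1.56 and -1.49. RPL7B was not analysed here. In each of these cases the assembly factor had its large fall by 24 min and the ribosomal protein gene after it. Ribosomal protein genes lie close to the bright end of the array, where the highest gene reads 14.84, so that their falls may be understated.

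**Figure D5:**
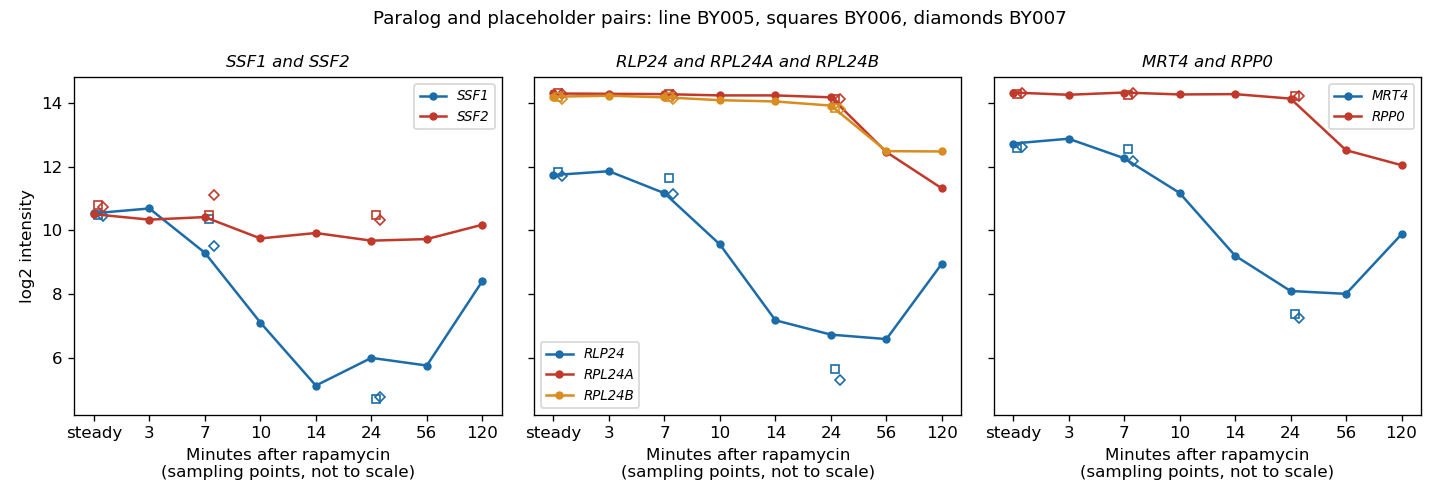
Log2 level in every array for SSF1 with SSF2, RLP24 with RPL24A and RPL24B, and MRT4 with RPP0, against sampling time in min (not to scale). The line is BY005, squares are BY006 and diamonds BY007; SSF1, RLP24 and MRT4 drop by 24 min, SSF2 stays between 9.68 and 11.11, and the ribosomal protein genes drop at 56 min.

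The same contrast held for the medians of the whole lists, but not for every ribosomal protein gene. Among those of the large subunit, the lowest change was -1.58 at 10 min, -2.96 at 14 min and -3.93 at 24 min. Of 75 measured genes of large-subunit ribosomal proteins, 71 were lower at 24 min with a median of -0.35, and 75 at 56 min with a median of -2.44. In BY005 their lowest sample was that of 56 min in 64 genes and 120 min in 11. The 32 genes of the small-subunit processome, which builds the other subunit, were all lower at 24 min, with a median of -4.18. Their median was -3.57 at 56 min and -2.15 at 120 min, next to -3.84 and -2.08 in the large-subunit factors. These lists share all arrays with the members, so that the values are set side by side without a test.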

How the data were processed

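Total RNA of 14 samples was hybridised to Affymetrix Yeast Genome 2.0 arrays. The authors deposited linear intensities, for which the submitters' processing notes name RMA, affy and R 2.10.0. Their median over genes ran from 1591 to 1776 per array, and log2 was taken here. RMA quantile-normalizes the arrays, so a shift of most transcripts is removed. Probe sets with 1 budding yeast gene in the platform annotation gave 5449 genes, as means per gene. The number of arrays limits the precision.

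limma 3.58.1 in R 4.3.3 (lmFit, eBayes) was fitted on 8 time groups without a block, with 6 residual degrees of freedom and 2.43 from the prior, and tested on simulated data. Times with a single array borrow their error from the replicated times. Same-numbered samples come from the same fermentation, so they pair: their deviations from the group means correlated with r from -0.16 to 0.53.

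All members are named. Array values are given for the largest and smallest fall in each role, members that did not pass the test, and the genes set beside them. The members and lists were chosen with earlier results of these data known. Alternatives were the block, other normalizations and scalings, a filter on dim genes, a floor at background and leaving out each replicate array. Promoter and protein sequences had been planned and were not used here.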

Additional observations from a re-analysis of the deposited data

How the results depend on the processing

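Counts of members called and their median changes kept their direction and stayed near the reported values with the replicate block, with quantile normalization of the yeast genes alone, a filter on dim genes, values floored at background, an intensity trend in the fit, and without probe sets that share probes. With the replicate block SSF2 was also called lower at 24 min, and no other member's call changed at that time. Leaving out single arrays moved the count at 7 min between 0 and 8, and the early minus late difference at 24 min between -0.34 (without the 24 min array of BY006) and -0.19. That difference was -0.08 with the shuttling factors counted as late and -0.32 with them as early. The settings that mattered most were scalings on control probes, the poly-A one chosen after seeing the data and without the 7 min array of BY005. They shift the median gene at 24 min to 1.08 (hybridisation controls) and 0.50 (poly-A), and raise the median standard error at 24 min from 0.07 to 0.84 and 0.47. With hybridisation controls the median member changed by -0.74 at 3 min, -0.04 at 7 (30 of 50 below 0), -1.83 at 10, -3.93 at 14, -3.02 at 24, -4.81 at 56 and -2.43 at 120 min, by -1.63 for 56 against 24 min and 0.61 for 120 against 24 min, and SSF2 (0.46) and TIF6 (0.08) turned sign at 24 min. It was -0.04 at 3 min, 0.30 at 7, -1.80 at 10, -2.70 at 14, -3.61 at 24 and -3.61 at 56 min with poly-A controls. Members called by limma numbered 0 and 14 at 10 min (hybridisation, then poly-A controls), 24 and 30 at 14 min, and 0 and 26 at 120 min. They were 0 and 0 for 56 against 24 min, 0 and 0 for 120 against 56 min, and 0 and 11 for 120 against 24 min. Other than for 56 against 24 min, these counts with hybridisation controls have no share of all genes beside them and are no result about the members. The median standard error over all genes was then 1.19 at 10, 14 and 120 min, against 0.1 as reported. With poly-A controls, the share of all genes that were lower was 1.38% at 10 min, 2.86% at 14 min and 3.51% at 120 min. The cause of these shifts with scaling was not tested. At 24 min, 2 members had means under background and 7 had at least 1 array under it, which limits how far a fall can be read.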

Other observations

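Genes of regulators known to act on ribosome biogenesis promoters moved in both directions. TOD6, a repressor that binds the PAC motif of such promoters, read 9.57, 9.49 and 9.49 at steady state and 5.61, 4.21 and 4.08 at 24 min. All the 24 min arrays lay under the background value of 5.63, and the change was -4.89 ± 0.42 (adjusted p = 8.6e-06, limma, n = 3 arrays per group), given as at least 14.8-fold. In BY005 TOD6 went from 8.41 at 7 min to 6.11 at 10 min and 4.46 at 14 min, and was back at 7.5 at 120 min. IFH1, a coactivator of ribosomal protein genes, was lower at 24 min by a change of -1.83 ± 0.13 (adjusted p = 2.3e-06), and SFP1, an activator of both gene groups, by -0.36 ± 0.06 (adjusted p = 0.00058).

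STB3, a repressor that binds the RRPE motif, was higher at 24 min, at 10.24, 10.15 and 10.23 against 9.38, 9.61 and 9.65 at steady state, a change of 0.66 ± 0.07 (adjusted p = 4.1e-05). DOT6, the paralog of TOD6, and SCH9, a kinase that TOR complex 1 activates, did not pass the test, at 0.11 (adjusted p = 0.48) and -0.01 (adjusted p = 0.91). The paralogs TOD6 and DOT6 thus differed in size at 24 min, a difference that was not tested. The 50 members lie on 14 chromosomes, and no pair of them stood next to each other in the gene table.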
